A study of Mus musculus with 22 samples.

Results

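Liver of male mice without a pituitary differed from that of sham males in 37.4% of the genes tested: genes of growth hormone action, of male-biased metabolism and of protein folding fell, and many genes of the female pattern rose. The comparison was read from 2 of the series' 22 two-colour arrays, the dye-swapped pair that set liver RNA of hypophysectomised (Hypox) males against that of males with a pituitary. The pair was chosen by its labels, and each log2 ratio below is Hypox over sham, turned by the dyes in the labels. All mice were ICR mice aged 8 weeks. The Hypox males had lost the pituitary as adults and had received no hormone. The controls are called intact and untreated in the labels of the arrays and sham-operated and vehicle-injected in the design text, and are called sham here. Each array compared pools of liver RNA, not single animals: 3 Hypox against 4 sham males on array 1, with Hypox RNA in the green dye, and 3 against 3 on array 2, with Hypox RNA in the red dye. The pools of this comparison sum to 6 Hypox and 7 sham males. The labels do not say how completely the pituitary was removed or at what hour the mice were killed. The same comparison in females, Hypox over sham on 2 further arrays, and Hypox males given growth hormone (GH) are used only to set the male values beside them. The female pools held 3 Hypox and 3 sham mice on array 1 and 2 Hypox and 3 sham mice on array 2. On female array 2, with Hypox RNA in the red dye, 57.1% of red spots were well above background, the lowest share of the series.

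The pituitary releases GH, which binds the GH receptor on hepatocytes. The receptor's kinase JAK2 activates the transcription factor STAT5B, which turns on Igf1 and the feedback inhibitors Socs2 and Cish. Male rodents release GH in separate pulses and females more evenly, and this difference maintains most of the sex bias of liver gene expression. The pituitary also drives the thyroid, the adrenal cortex and the gonads, so hypophysectomy lowers thyroid hormone, glucocorticoids and sex steroids as well, and in this comparison the loss of GH and of the other hormones cannot be told apart.

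Of 26191 gene names tested, limma called 4917 higher and 4866 lower after hypophysectomy, 18.8% and 18.6% of the genes tested and 37.4% together. A call needed an adjusted p under 0.05 and the same direction on both arrays. Most called changes were small: 3448 reached 1.5-fold. At 2-fold or more, 591 genes were higher and 686 lower, and at 8-fold or more 22 were higher and 69 lower. The ratios on both arrays correlated at r = 0.840 across genes, which are not independent replicates. They had the same sign for 75.4% of the 26190 genes with a ratio on both arrays. Of the 1396 genes with a mean change of at least 2-fold, 4 had opposite signs. Those genes were picked by the mean of the same arrays, which makes opposite signs rare. An unadjusted p under 0.05 was reached by 11936 genes. Leaving out array 1 left 5049 called genes, and leaving out array 2 left 6504. With each array centred on its median in place of loess, 1837 were higher and 1154 lower (61.4% higher, against 50.3% in the main analysis). Beyond the 2 arrays there are no replicates of this comparison, and p-values measure the spread between pools, some of which recur on other arrays and were treated as independent. The SE given with a mean comes from the fit to all 22 arrays and is not the spread of the 2 arrays shown. Because 37.4% of all genes were called, the count of a gene list is read below against these shares and the list's median against the median log2 ratio of 0.01 over all genes tested.

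Markers of cell types were checked before the results. All 8 tested hepatocyte markers of 10 listed were well above background in both groups. Their ratios differed between the arrays, with list medians of -0.86 on array 1 and 0.08 on array 2, and 3 were called lower. The abundant plasma protein genes shared this gap: Alb, which encodes albumin, was at -0.38 and 0.60, Trf (transferrin) at -1.21 and 0.50, and Ahsg (fetuin A) at -0.86 and 0.93, and none of these 3 was called. A further set of genes are markers of another tissue. Of 22 tested skeletal muscle markers, 12 were called lower in Hypox and none higher, with medians of -2.06 on array 1 and -2.72 on array 2. The fast myosin light chain Myl1 was at -3.99 and -4.21 and the muscle creatine kinase Ckmt2 at -3.68 and -4.25. The muscle list stood at a median of 0.04 in Hypox over sham females and at 2.18 in sham males over sham females. The sham male pools were thus high in it against both Hypox males and sham females. In Hypox males given GH over Hypox males its medians were 1.38 (30 min), 0.88 (90 min) and 1.32 (2 injections). There the arrays were unequal, with Myl1 at 4.40 and -0.27, 4.18 and 0.29, and 0.03 and 4.31. Of the 12 calls on this list 1 was left without either array, and its part in other results was not tested. The respiratory chain list below holds the muscle forms Cox8b and Cox6a2.

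**Figure D1:**
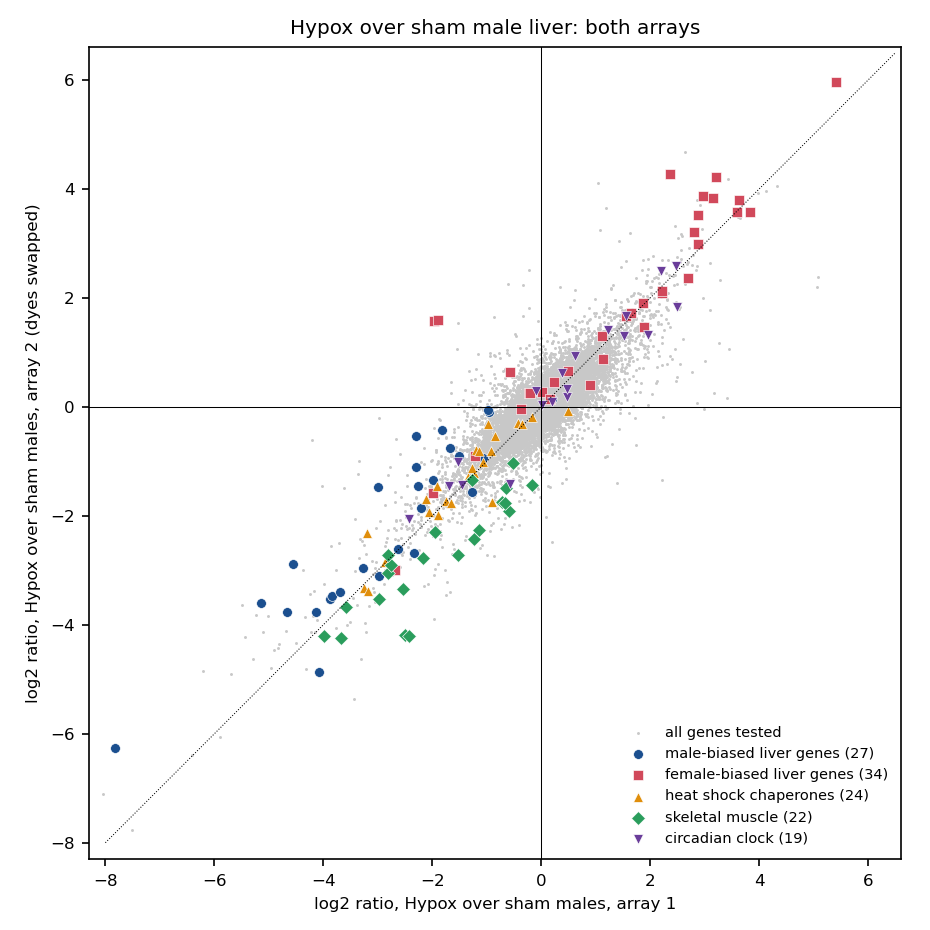
Log2 ratios of Hypox over sham male liver on array 1 (x axis) and array 2 (y axis) for all genes tested (grey) and for 5 gene lists, 1 point per gene, with the number of genes tested in brackets. Male-biased, heat shock and muscle genes lie at the lower left and most female-biased genes at the upper right, with r = 0.840 over all genes.

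The largest changes came first from secreted pheromone carriers and from enzymes of fatty acid, steroid and drug metabolism. Mup1, which encodes a major urinary protein, was at -7.82 and -6.26 on the arrays (mean -7.04 ± 0.57, adjusted p = 1.5e-06). Mup5 was at -6.21 and -4.84, and Mup4 at -4.37 and -2.99, so all 3 tested members of the family fell. Among the 20 largest falls were also Wfdc21, a secreted protein with a protease inhibitor fold (-5.44 and -4.22), the cytochrome P450 gene Cyp2f2 (-5.49 and -3.64), the coenzyme A hydrolase Nudt7 (-4.67 and -3.76), the receptor Adgrv1 (-4.15 and -4.13), the cell cycle repressor E2f8 (-4.11 and -3.92), and Csad, which makes hypotaurine on the way to taurine (-4.24 and -3.43). For a few of these genes the probes of a name differed. Dct, a melanin pathway enzyme, was at -4.20 and -3.84 on its brightest probe and at -0.10 on another, and Olfr166 at -4.50 and -4.34 on its brightest probe and at 0.02 on another, so the fall rests on a single probe in both. The other probe of Adgrv1 was at -2.34. Myl1, Ckmt2 and Cox8b, also among the 20, are genes of skeletal muscle. The calls of Wfdc21 and Cyp2f2 were lost without array 1 (-5.11, adjusted p = 0.063, and -3.61, adjusted p = 0.072), and that of Wfdc21 also without array 2 (-4.54, adjusted p = 0.081).

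The 20 largest rises were led by Hao2, an oxidase of hydroxy acids, at 5.40 and 5.96 (mean 5.68 ± 0.24, adjusted p = 5.2e-09). Among the others were the transcription factor Olig1 at 4.12 and 3.96 and the keratin Krt23 at 3.98 and 3.91. Vldlr, a receptor for triglyceride-rich lipoproteins, was at 3.61 and 3.48, S100g, a calcium-binding protein, at 3.64 and 3.46, and Serpinb1a, an inhibitor of neutrophil proteases, at 3.81 and 3.54. Both arrays were close for each of these genes. Of the 20 largest rises, 11 were also called higher in Hypox females, 4 were called lower there and 5 were not called. Of the 20 largest falls, 16 were also called lower in females and 4 were not called. In the female comparison 14.6% of all genes were called higher and 16.5% lower.

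The GH receptor pathway had no common direction. Ghr was at -0.34 and 0.31 and was not called, and another of its probes went the opposite way. Jak2 was slightly higher (0.48 and 0.26, mean 0.37 ± 0.14, adjusted p = 0.048), and Stat5a was lower (-1.10 and -0.64). Stat5b was at 0.32 and 0.20, was not called, and again had a probe that went the opposite way. Of 18 tested genes of GH signalling 3 were called higher and 5 lower, with a median of -0.06. The 5 include Socs2 and Cish, which are also counted as targets below. Without array 1 neither Jak2 (0.24, adjusted p = 0.469) nor Stat5a (-0.65, adjusted p = 0.078) was called, and the counts were 0 higher and 2 lower. Without array 2 Jak2 was not called either (0.50, adjusted p = 0.088).

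The targets fell. Of 12 genes listed as GH and STAT5 targets, 10 were called lower and none higher, with a median of -2.15. Igf1, the growth factor that the liver sends into the blood, was at -2.67 and -2.25 (mean -2.46 ± 0.16, adjusted p = 2.8e-07), and Igfals, which carries it there, was at -2.09 and -1.70. Socs2 was at -3.62 and -1.49 (mean -2.55 ± 0.39, adjusted p = 2.4e-04). Cish was at -4.21 and -0.61 (mean -2.41 ± 0.68, adjusted p = 0.014), so both feedback inhibitors were much lower on array 1 than on array 2, and without array 1 Cish was not called (-0.80, adjusted p = 0.551). In sham males over sham females, which share the sham males, Cish was at 0.51 on array 1 and -3.17 on array 2 of that comparison. Lifr, the receptor for leukaemia inhibitory factor, was at -2.69 and -2.99, and Egfr, the receptor for epidermal growth factor, at -2.74 and -3.09. Other probes of Lifr lay between -2.06 and -1.11, and those of Egfr between -3.92 and -2.87. Onecut1, a liver transcription factor, was at -2.22 and -1.01. Igfbp3, a binding protein for IGF1, was at 0.10 and -0.05 and was not called, while Igfbp2, another binding protein, rose (1.57 and 1.71, mean 1.64 ± 0.17, adjusted p = 1.1e-05).

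Promoter sequences are shown where a listed target carried the STAT5 site TTCNNNGAA within the 250 bases before the gene's start, searched in RefSeq promoters of build GRCm38.p6. The site reads the same on both strands. It was present in 4 of 15 promoters of the target list (26.7%), against 7.02% of all 32851 promoters. Both starts of Bcl6 and both of Igfals held it. The Bcl6 stretch (chr16:23981353-23981463, minus strand) holds 3 sites and the Igfals stretch (chr17:24878141-24878211, plus strand) holds 1, in capitals:
Bcl6: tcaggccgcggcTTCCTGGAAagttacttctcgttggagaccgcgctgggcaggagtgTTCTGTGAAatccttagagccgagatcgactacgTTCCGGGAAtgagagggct
Igfals: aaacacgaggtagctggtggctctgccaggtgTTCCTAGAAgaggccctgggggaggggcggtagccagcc
A match of letters describes the sequence and does not show that STAT5 binds there.

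The ratios of these targets after GH are set beside those after loss of the pituitary. The GH-treated males were compared with Hypox males, so Hypox males enter all these comparisons. After 1 injection the Hypox pools held 3 males on each array, as in Hypox over sham, and the arrays lay on the same slides 1 and 2. After 2 injections the Hypox pools held 5 males on each array. Those arrays lay on slide 5 and were scanned on another day. GH called 2.5% of all genes 30 min after 1 injection, 4.98% at 90 min and 19.3% 30 min after the last of 2 injections. Socs2 rose by 2.22 at 30 min, 3.33 at 90 min and 3.22 after 2 injections. Cish was at 2.19 at 30 min, not called, and rose by 4.17 and 3.11 later. Serpina3k, a serine protease inhibitor of plasma that had been at -5.01 and -3.84 in Hypox over sham, was at -0.54 at 30 min, not called, and rose by 2.35 at 90 min and 3.25 after 2 injections. Igf1 and Egfr were called higher after 2 injections (1.22 and 2.17) and not at 90 min (0.47 and 0.84). After 2 injections 8 of the 12 targets were called higher and 1 lower. The latter was Bcl6 (-1.76), which was also among the 10 targets called lower in Hypox over sham males, so the targets did not share a direction after GH.

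**Figure D2:**
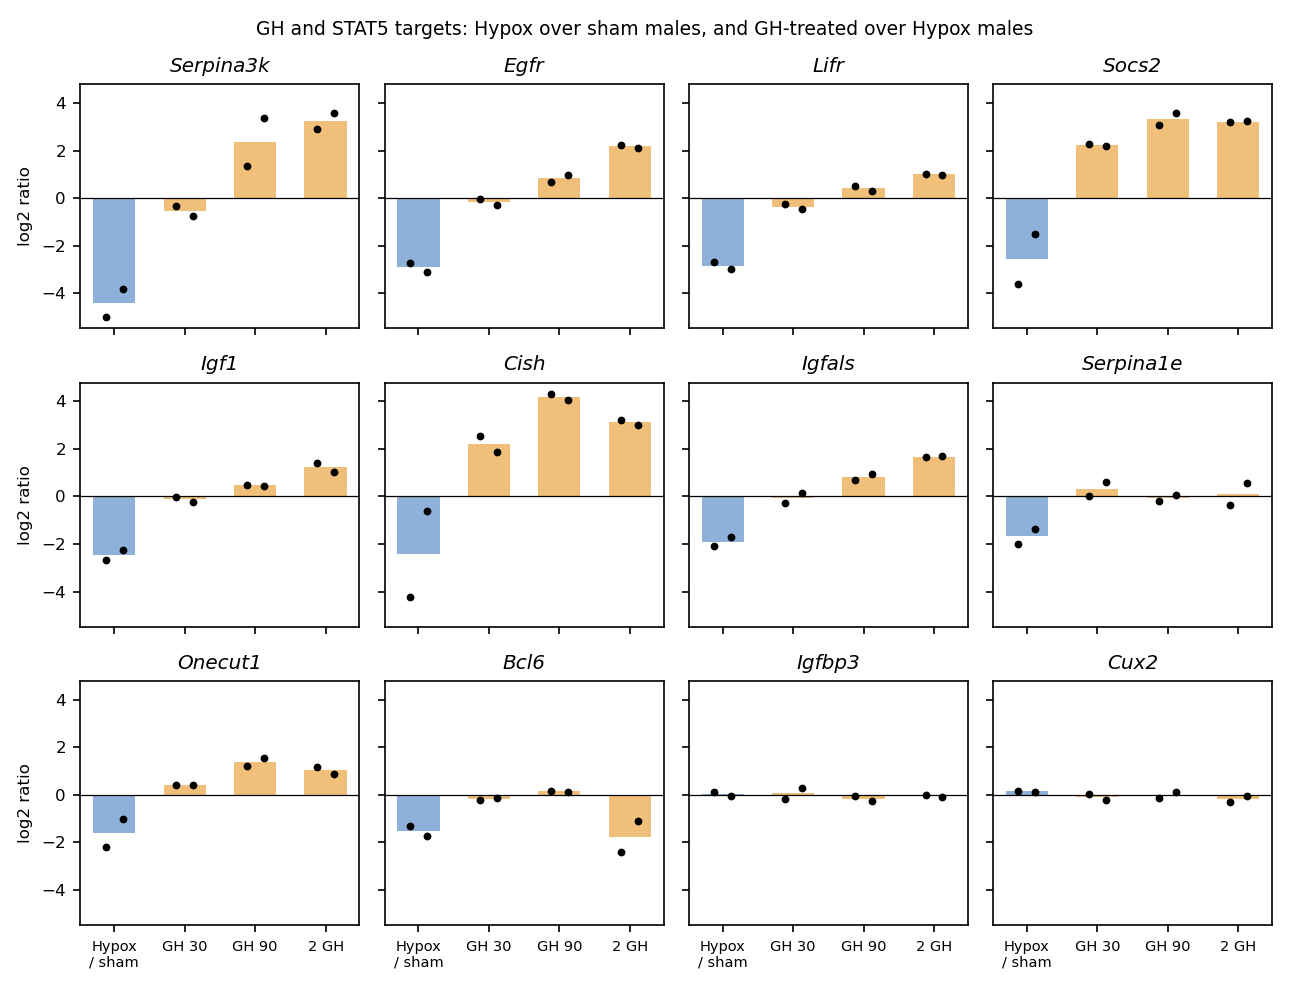
Log2 ratios (y axis) of the 12 GH and STAT5 targets in Hypox over sham males (blue bars) and in Hypox males given GH over Hypox males (orange bars: 30 min after 1 injection, 90 min after 1 injection, 30 min after the last of 2 injections). Bars are the means of 2 arrays and points the single arrays. Socs2 and Cish stand above 2 at all 3 times of GH, while Igfbp3 and Cux2 lie near 0.

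Genes that mark the male liver fell. Of 27 tested genes of 33 listed as male-biased, 25 were called lower and none higher, with a median of -2.24. The sham males of this comparison also enter the comparison that shows the bias on these arrays, so the direction is not independent of how the list is known. Elovl3, which lengthens very long fatty acids, was at -4.14 and -3.77. Nat8f5, of the N-acetyltransferase family, was at -5.15 and -3.60. Slco1a1, an uptake carrier for organic anions, was at -4.08 and -4.86, lower on array 2 than on array 1, unlike Nat8f5 and Mup1. The steroid enzymes Hsd3b5 (-3.70 and -3.40) and Cyp7b1 (-3.83 and -3.48), Tff3, a trefoil peptide (-3.87 and -3.52), and the complement gene C6 (-3.27 and -2.96) fell on both arrays alike. Cspg5, a proteoglycan, was at -2.33 and -2.69, and Obp2a, an odorant-binding protein, at -2.20 and -1.85. The other probe of Cspg5 was at -1.46. The members that did not pass the test were Nox4, an oxidase (0.19 and 0.14), and Alas2, a heme synthesis enzyme (-0.96 and -0.10).

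Female-biased genes rose in the same males. Of 34 tested genes of 39 listed, 22 were called higher and 3 lower, with a median of 1.64. After Hao2 came Atp6v0d2, a subunit of the proton pump (3.63 and 3.79), and the P450 genes Cyp2b9 (3.20 and 4.22), Cyp4a14 (3.83 and 3.57), Cyp2b13 (2.88 and 3.52) and Cyp2b10 (2.80 and 3.20). Slco1a4, an anion carrier, was at 3.60 and 3.57, and the thioesterase Acot3, which cleaves acyl-coenzyme A, at 2.88 and 2.99. Sult2a2, a sulfotransferase for hydroxysteroids, was at 2.35 and 4.27, and its other probe at 0.62. Abcd2, a peroxisomal fatty acid carrier (2.22 and 2.12), the transcription factor Tox (2.22 and 2.08) and Rtn4, which shapes the endoplasmic reticulum (1.88 and 1.46), rose less. All of these were higher on both arrays, which a call required. The other probe of Tox was at 1.36, and those of Rtn4 ranged from 0.34 to 1.71. The 3 members called lower were Lifr, the P450 gene Cyp2c40 (-1.99 and -1.58) and Dpy19l3 (-1.21 and -0.90), and of these Lifr was not called lower in sham males than in sham females on these arrays (-0.19) and Dpy19l3 was higher (0.66).

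Other female-biased genes were not called higher. Sult3a1, a sulfotransferase, was at -1.89 on array 1 and 1.60 on array 2. The arrays thus disagreed in sign, and it was not called. The P450 genes Cyp3a41a (-0.57 and 0.64), Cyp3a16 (-0.23 and 0.26) and Cyp17a1 (0.02 and 0.27) and the sulfotransferase Sult1e1 (0.23 and 0.45) were not called either. In females all of these were called lower after hypophysectomy, with Sult3a1 at -8.70, Cyp17a1 at -1.57, Cyp3a16 at -1.41 and Sult1e1 at -0.84.

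The regulators of sex bias moved in different directions. Bcl6, a repressor that is male-biased, was at -1.31 and -1.75 in Hypox over sham males (mean -1.53 ± 0.28, adjusted p = 8.2e-04) and at 0.74 in females, not called. Cux2, a female-biased factor, was at 0.17 and 0.13 and not well above background in sham males, and it fell by 2.19 in females. Trim24 rose slightly in males (0.49 and 0.66) and fell by 1.76 in females. Its call in males was lost without array 2 (0.44, adjusted p = 0.174). Esr1, the oestrogen receptor, was called lower in both sexes (-1.13 and -1.28 in males, -3.13 in females), but its other probe was at -0.10 in males. Hnf4a, a central hepatocyte factor, was at -0.46 and -0.53. Of 15 tested regulators 3 were called higher and 6 lower, with a median of 0.06, and with median centring 1 and 4.

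Whether the loss of the pituitary acted differently in males and females was tested as the difference of both log2 ratios in the same fit. A call of this difference needed an adjusted p under 0.05 but not the same sign on both arrays of a sex. The difference was called for 1766 genes (6.74%), 843 of them with the higher ratio in males. This count was 147 with median centring, 217 from the 4 arrays alone and between 575 and 854 when 1 of the 4 was left out. Over the male-biased list the difference was lower in males for 19 of 27 genes and higher for none (median -1.90), and over the female-biased list it was higher for 27 of 34 and lower for none (median 2.07). With median centring these counts were 11 and 20. Among the largest differences were Sult3a1 (8.55) and Hao2 (6.53) on one side and Cyp4a12a, a fatty acid hydroxylase, on the other (-5.62). Sult3a1 had a mean of -0.15 in males, not called, and was at -8.70 in females. It was well above background on only 1 of the 2 arrays in each male group. Cyp4a12a was at -2.30 and -1.11 in males, with another probe at -1.08, and rose by 3.92 in females. The carriers Slc22a26 (3.14 and 3.84 in males, -2.21 in females) and Slc22a29 (2.68 and 2.35 in males, -1.68 in females) changed in opposite directions. Lpl, lipoprotein lipase, rose in both sexes, to 1.92 and 1.36 on the male arrays and by 4.28 in females. The male arrays lay on slides 1 and 2 and the female arrays on slides 3 and 4, scanned on another day, so in this difference the slide and the sex cannot be told apart. The difference also rests on female array 2, which had the lowest share of red spots well above background.

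**Figure D3:**
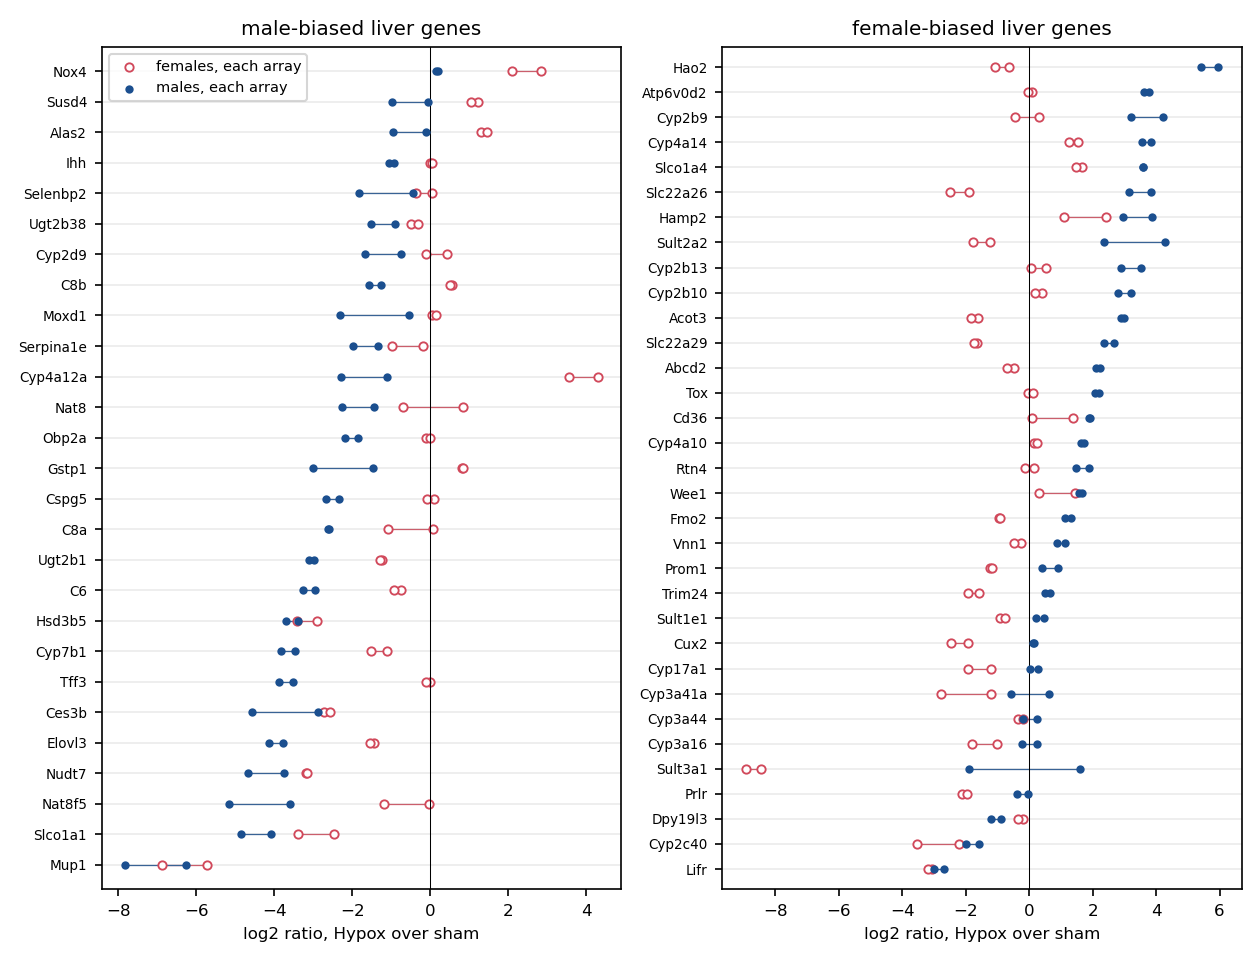
Log2 ratios of Hypox over sham (x axis) for the male-biased genes (left) and female-biased genes (right) reported here, with both male arrays as filled points and both female arrays as open points, joined by lines. In males 25 of 27 male-biased genes were called lower, and Hao2, Slc22a26, Sult2a2 and Acot3 lie above 0 in males and below 0 in females.

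Heat shock chaperones, which keep proteins folded and many of which are switched on by the factor HSF1, fell together. The list is mainly of cytosolic chaperones but also holds the mitochondrial pair Hspd1 and Hspe1. Of 24 tested members of 26 listed, 21 were called lower and none higher, with a median of -1.27. With median centring 15 were called lower, at a median of -1.07. Hsph1, which recharges HSP70, was at -3.25 and -3.33 (mean -3.29 ± 0.19, adjusted p = 8.4e-08). Hspa1a, the inducible HSP70, was at -3.17 and -3.38, with its other probes between -3.28 and -0.58, and Hsp90aa1, the inducible HSP90, at -2.87 and -2.86. The small chaperone Hspb1 was at -3.20 and -2.32. The HSP40 partners Dnajb1 (-2.06 and -1.93) and Dnaja1 (-2.11 and -1.70) and the co-chaperone Bag3 (-1.90 and -1.99) followed. The constitutive members fell less: Hspa8 was at -1.19 and -0.80 and Hsp90ab1 at -1.15 and -0.81. Hsf1 itself was at -0.36 and -0.31 (mean -0.33 ± 0.06, adjusted p = 9.3e-04). The members not called were Hspa4 (-0.18 and -0.19), Hspb8 (0.49 and -0.08) and Cryab (-0.90 and -1.75).

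In females 19 of the 24 heat shock genes were called lower as well, at a median of -0.46. The difference between the sexes was lower in males for 15 and higher for none. This count was 1 with median centring, 6 without male array 1, 11 without male array 2, 6 without female array 1 and 10 without female array 2. Hspa1a was at -0.29 in females and Hspb1 at -0.31, neither called. In sham males over sham females the list had a median of 0.39, with Hspa1a at 2.59, and these values rest on sham pools that also enter the comparison with Hypox. The heat shock element, 3 alternating units of GAA and TTC spaced by 2 bases (GAANNTTCNNGAA or TTCNNGAANNTTC, both strands), was found in 2 of 24 promoters of the list (8.33%) and in 0.47% of all promoters. Those 2 belong to Hspd1 (-0.98 and -0.32) and Hspe1 (-0.93 and -0.81), the mitochondrial chaperonin pair, which share a promoter. It is shown on the Hspd1 strand (chr1:55088032-55088102, minus strand) with the element in capitals:
Hspd1: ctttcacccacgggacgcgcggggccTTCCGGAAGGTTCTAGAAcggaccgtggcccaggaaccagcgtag

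Genes of protein folding in the endoplasmic reticulum (ER) fell too. Of 40 tested members of 41 listed, 28 were called lower and 1 higher, with a median of -0.69. Sdf2l1, a component of the ER chaperone complex, was at -2.58 and -2.68 (mean -2.63 ± 0.32, adjusted p = 3.6e-05). Derl3, which works in the export of misfolded proteins, was at -2.45 and -2.57, and Creld2, a chaperone-like ER protein, at -2.25 and -2.62. Hspa5 (BiP), the main ER chaperone, was at -1.59 and -1.25, Dnajb11, its partner, at -1.61 and -1.57, and Pdia6, a disulfide isomerase, at -1.37 and -1.58. Hyou1 was at -1.58 and -1.52 and Manf at -1.49 and -1.66. The calnexin gene Canx (-0.19 and -0.14) and P4hb, the abundant disulfide isomerase (-0.24 and 0.05), were not called. With median centring the count of lower genes was 18.

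Genes of the signalling side of the unfolded protein response went both ways. Ern1, the sensor IRE1, was at -0.50 and -0.19 and called lower. Its target Xbp1 (-0.44 and -0.13), the sensor Eif2ak3 (-0.20 and 0.07) and the factor Atf4 (-0.01 and -0.06) were not called. Ddit3, which encodes CHOP, was the member called higher (0.95 and 0.51). Without array 1 Ern1 (-0.22) and Ddit3 (0.47) were not called. Asns, asparagine synthetase, fell (-1.51 and -1.95), and so did Chac1, which degrades glutathione (-2.82 and -1.26). In females 4 genes of the list were called higher and 8 lower, at a median of -0.11, and the difference was lower in males for 19 genes and higher for none. This count was 3 with median centring, 5 without male array 1, 7 without male array 2, 3 without female array 1 and 10 without female array 2. After 2 injections of GH 31 of the 40 genes were called higher over Hypox males, Hspa5 by 1.48 and Manf by 1.71. Beside those values, 9 of 10 tested exocrine pancreas markers were called higher after 2 injections (median 1.96), and their part in that result was not tested. In Hypox over sham males 1 of the 10 was called lower and none higher.

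The ER stress element, CCAAT, 9 bases of any kind and CCACG on either strand, was found in 37 of the 32851 promoters (0.11%) and in 10 of 36 promoters of the ER list (27.8%). Of 19 tested genes with the element 11 were called lower and 1 higher. Among the 10 in the ER list 9 were called lower, all but Canx, and among the 9 outside it 2 were called lower and 1 higher. The stretches of 6 promoters are printed with the element in capitals, in the direction of the gene, so that a copy on the other strand begins with CGTGG. They lie at chr2:34771980-34772070 (Hspa5, plus strand), chr15:88819496-88819566 (Creld2, plus), chr10:75893218-75893288 (Derl3, plus), chr12:17266464-17266534 (Pdia6, plus), chr10:86705524-86705664 (Hsp90b1, minus, with 2 copies) and chr19:6046496-6046566 (Syvn1, plus):
Hspa5: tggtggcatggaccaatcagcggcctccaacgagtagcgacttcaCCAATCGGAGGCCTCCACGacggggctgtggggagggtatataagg
Creld2: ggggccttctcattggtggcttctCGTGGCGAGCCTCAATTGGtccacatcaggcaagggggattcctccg
Derl3: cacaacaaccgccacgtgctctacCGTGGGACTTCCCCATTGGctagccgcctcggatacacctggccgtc
Pdia6: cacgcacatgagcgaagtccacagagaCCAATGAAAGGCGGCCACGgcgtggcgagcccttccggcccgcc
Hsp90b1: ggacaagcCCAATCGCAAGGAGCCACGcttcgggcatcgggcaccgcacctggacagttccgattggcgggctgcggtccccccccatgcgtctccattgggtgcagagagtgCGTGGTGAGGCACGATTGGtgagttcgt
Syvn1: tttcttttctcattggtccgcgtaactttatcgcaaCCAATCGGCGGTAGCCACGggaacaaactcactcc
Hsp90b1, the ER form of HSP90, was at -0.87 and -0.70, and Syvn1, a ubiquitin ligase of the ER membrane, at -1.35 and -1.16, with another probe at -0.41. The element was chosen because it is known from ER chaperone genes, so its frequency in the list is a description.

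**Figure D4:**
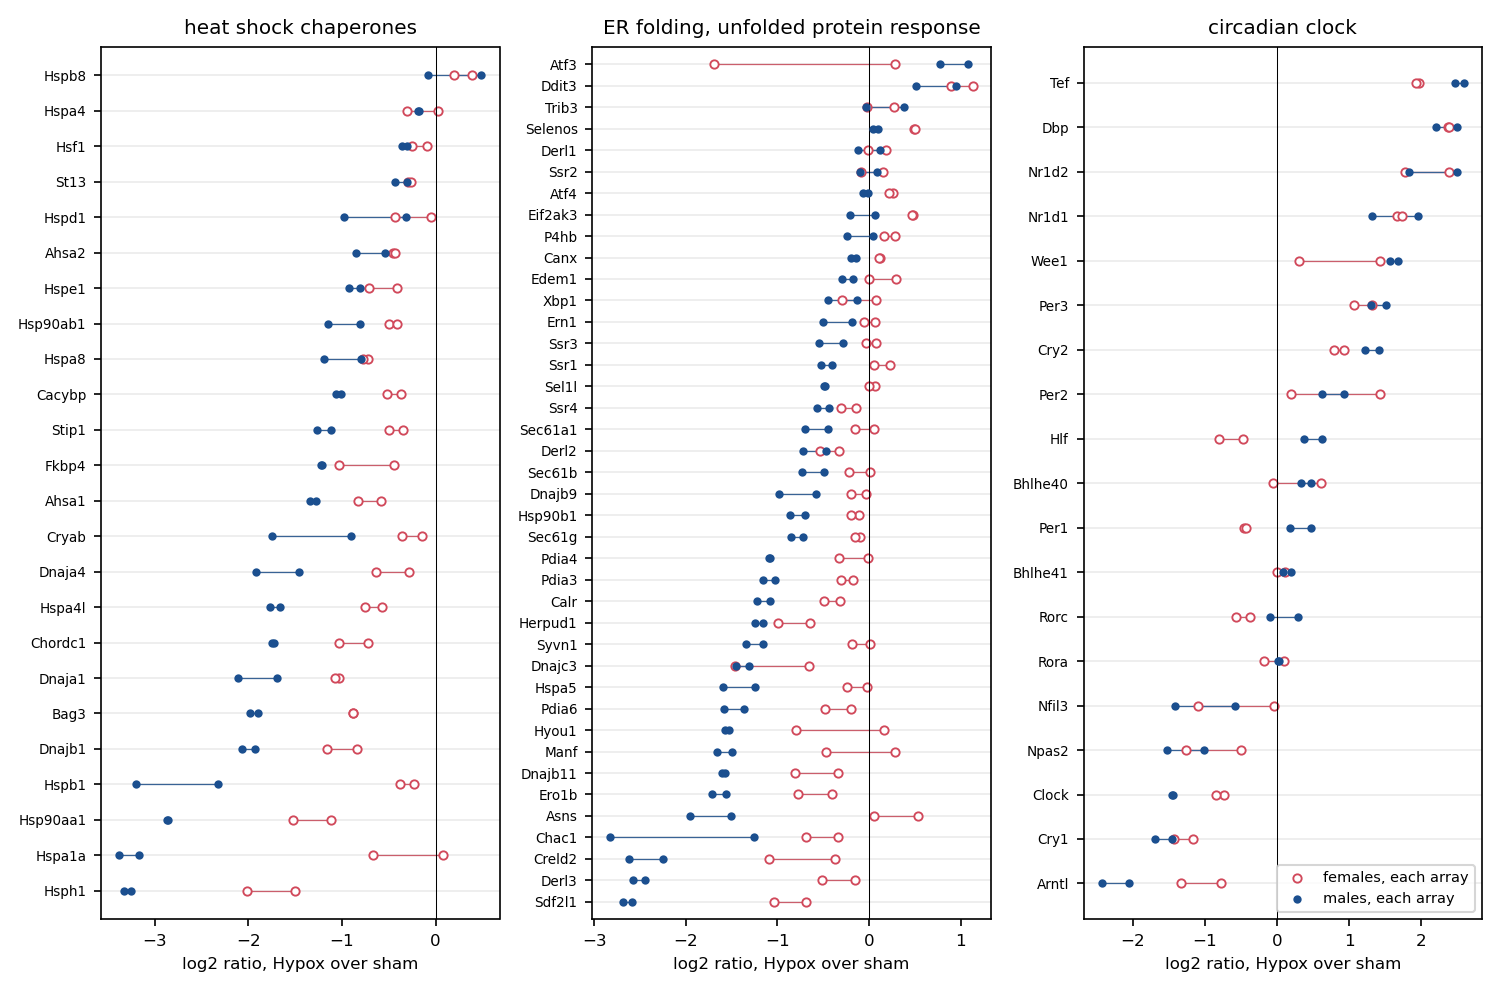
Log2 ratios of Hypox over sham (x axis) for each tested heat shock chaperone (left), ER folding gene (middle) and clock gene (right), with both male arrays as filled points and both female arrays as open points. Most heat shock and ER genes lie below 0 in males, and the clock genes split into a raised and a lowered set in both sexes.

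The circadian clock of the liver runs on the activators Arntl (BMAL1), Clock and Npas2, which act through E-boxes, and on repressors that follow them. Of 19 tested clock genes 8 were called higher and 4 lower, with a median of 0.40. The activators were the low side: Arntl at -2.43 and -2.06 (mean -2.25 ± 0.40, adjusted p = 7.9e-04), Clock at -1.46 and -1.44, Npas2 at -1.53 and -1.02. Cry1, a repressor, fell with them (-1.70 and -1.45). On the high side were the output factors Tef (2.47 and 2.59) and Dbp (2.20 and 2.49), the receptors Nr1d2 (2.50 and 1.83) and Nr1d1 (1.96 and 1.31), which repress Arntl, and the repressors Per3 (1.51 and 1.30) and Cry2 (1.21 and 1.42). Other probes gave smaller ratios for Tef (0.34 and 0.60), Nr1d1 (0.27) and Cry2 (0.16). Both arrays agreed in sign for each of these genes, which a call required. Without array 1 Npas2 was not called (-0.91). Per1 (0.46 and 0.18), Per2 (0.62 and 0.92), whose probes disagreed, and Bhlhe40 (0.47 and 0.33) were not called. In females Tef, Dbp, Nr1d1 and Nr1d2 rose by 1.95, 2.38, 1.69 and 2.07 and Cry1 fell by 1.30, while Arntl at -1.05 was not called. The hour of killing is not given for any group, and its part in these values was not tested. The E-box CACGTG, which reads the same on both strands, was found in 5 of 20 promoters of the clock list (25.0%). It was found in 6.02% of all promoters and in 7.67% of the promoters of tested genes. In the clock list it lay in promoters of Tef, Cry1, Per1 and Bhlhe41, and Per1 and Bhlhe41 were not called. It is shown in capitals for a gene of each direction, Tef (chr15:81802513-81802583, plus strand) and Cry1 (chr10:85185079-85185149, minus strand):
Tef: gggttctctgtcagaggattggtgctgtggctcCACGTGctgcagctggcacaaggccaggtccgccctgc
Cry1: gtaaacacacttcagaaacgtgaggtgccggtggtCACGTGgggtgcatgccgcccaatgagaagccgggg

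Thyroid hormone enters the liver through carriers and is activated or broken down by deiodinases before it turns on its targets. Of 16 tested genes of its handling and response 3 were called higher and 8 lower, with a median of -0.45. Dio1, the liver deiodinase and itself a target, was at -4.84 and -4.42 (mean -4.63 ± 0.34, adjusted p = 6.7e-07). The targets Gpd2, the mitochondrial glycerol phosphate dehydrogenase (mean -1.99), Klf9, a transcription factor (-1.80 and -1.62), Thrsp, a regulator of lipogenesis (-1.46 and -1.51), and Me1, malic enzyme (-1.09 and -1.27), fell evenly on both arrays. Serpina7, which encodes the thyroxine-binding globulin of plasma, rose (2.85 and 3.79), and so did the receptor gene Thra (0.86 and 0.53). In females Dio1 fell by 4.50 and Serpina7 rose by 4.18, and the difference between the sexes was called for neither.

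Genes listed as glucocorticoid-induced did not move as a group: of 20 tested 5 were called higher and 4 lower, with a median of 0.01. The list also holds a carrier of these hormones, Serpina6, the corticosteroid-binding globulin of plasma (2.44 and 3.31), which is counted among the 5. The metal-binding proteins Mt1 (3.09 and 2.64) and Mt2 (2.69 and 2.66) rose in males and were at 0.11 and -0.60 in females, neither called there. Fkbp5, a co-chaperone of the glucocorticoid receptor, fell (-0.90 and -1.39), as did Errfi1, an inhibitor of EGFR (-2.81 and -2.27).

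Genes against oxidants and electrophiles rose in part. Of 16 tested metallothionein and NRF2 targets 10 were called higher and 2 lower (median 0.71), and of 23 tested glutathione transferases 11 were higher and 2 lower (median 0.69). Gsta1 was at 2.06 and 2.36, Gsta2 at 1.74 and 1.94, Mgst3 at 1.80 and 1.72, and Nqo1, a quinone reductase, at 1.70 and 1.62. Gstp1, which is male-biased, fell (-3.00 and -1.48). Gclm, the modifier subunit of the enzyme that makes glutathione, fell as well (-0.89 and -0.79). Without array 1 the list of NRF2 targets had 6 genes called higher.

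Enzymes of drug and steroid metabolism split by gene. Of 41 tested P450 genes of families Cyp1 to Cyp3, 14 were called higher and 14 lower (median 0.01). The raised side held Cyp2c37 (2.97 and 3.92), Cyp2a5 (1.18 and 3.65) and Cyp2c38 (2.53 and 1.79) beside the Cyp2b genes above, with Cyp2a5 far higher on array 2 and the other probe of Cyp2c37 at 1.06. The lowered side held Cyp2d9 (-1.68 and -0.76), Cyp2c70 (-1.64 and -0.71) and Cyp2r1, a vitamin D hydroxylase (-1.04 and -1.10). Of 12 tested sulfotransferases 6 were higher and 2 lower: Sult1c2 was at 1.54 and 1.37, Sult1d1 at 1.20 and 1.19, and Sult5a1 at -3.42 and -3.01. Of 11 UDP-glucuronosyltransferases 3 were higher and 7 lower, with Ugt2b1 at -2.97 and -3.10 and Ugt1a1, which conjugates bilirubin, at 0.86 and 1.20. The carboxylesterases Ces2b (-4.16 and -3.39), Ces3b (-4.56 and -2.88) and Ces4a (-2.27 and -1.98) fell, and Ces1g rose (1.15 and 1.55). The other probe of Ces2b was at -2.11. Hsd3b4, a hydroxysteroid dehydrogenase, was at -4.33 and -3.86. With median centring 11 P450 genes were higher and 3 lower, and 1 glucuronosyltransferase was higher and 3 lower. Probes of these families may also bind close copies, and this was not tested.

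Plasma serpins of clade A, most of them protease inhibitors made by hepatocytes, were lowered with few exceptions. Of 15 tested 11 were called lower and 2 higher, with a median of -1.79. Serpina3m was at -3.03 and -2.22, Serpina9 at -3.34 and -2.77, Serpina3c at -2.21 and -2.20, and the α1-antitrypsin gene Serpina1d at -2.78 and -1.10. Serpina12 (vaspin), which was not well above background in Hypox males on either array, was at least 4.2-fold lower (adjusted p = 1.3e-08). The members called higher were the hormone carriers Serpina6, on chromosome 12 with the lowered genes, and Serpina7, on chromosome X. Among 37 tested complement and coagulation genes 3 were higher and 13 lower (median -0.26), and the members of the lytic pore C6, C8a (-2.63 and -2.61), C9 (-2.69 and -1.75) and C8b (-1.27 and -1.56) were lower, as was the clotting factor F11 (-1.84 and -2.35). With median centring 5 genes of this list were lower and none higher.

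In bile acid metabolism 7 of 26 tested genes were called higher and 13 lower (median -0.33). Cyp8b1, which sets the share of cholic acid, was at -1.69 and -2.09, and Cyp27a1, of the alternative pathway, at -2.03 and -1.51. The uptake carrier Slc10a1 was at -1.42 and -1.63. Abcg5 (2.04 and 1.11) and Abcg8 (1.74 and 0.67), the pair that exports cholesterol into bile, rose, but without array 1 neither was called (1.15, adjusted p = 0.199, and 0.61, adjusted p = 0.393). With median centring 5 bile acid genes were higher and 5 lower. Cholesterol synthesis genes were lower for 10 of 24 tested members and higher for 1 (median -0.39): Sc5d was at -1.54 and -1.24 and Dhcr7 at -0.96 and -1.05. The array medians of the cholesterol list were -0.67 and -0.08, and its calls fell to 3 lower without array 1 and were 11 without array 2.

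Fatty acid genes had no common direction. Of 36 tested genes of fatty acid oxidation and PPARα targets 13 were called higher and 14 lower (median -0.05). Ppara, the receptor itself, was at -1.10 and -1.49. The fatty acid binding protein Fabp1 (-1.83 and -2.05), Angptl4, an inhibitor of lipoprotein lipase (-3.09 and -3.06), and Pex11a, a peroxisome division factor (-1.51 and -1.48), fell. Cyp4a31 (2.00 and 2.20), Acot4 (1.74 and 1.61) and Cpt1a, the entry step of mitochondrial oxidation (0.71 and 0.62), rose. Of 26 lipogenic genes 6 were higher and 10 lower (median -0.12). Lpin1, a phosphatidate phosphatase, was at -2.82 and -3.12, while the regulators Pparg (1.66 and 1.53) and Srebf1 (0.94 and 1.11) rose. Apoa4, an apolipoprotein, was at -2.22 and -2.02. Without array 1 Cpt1a (0.56, adjusted p = 0.061) and without array 2 Srebf1 (0.97, adjusted p = 0.057) were not called. With median centring the oxidation list had 9 genes higher and 5 lower, and the lipogenic list 2 and 3.

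Among the genes of glycogen and glucose, the enzyme that builds glycogen rose and the one that breaks it down fell. Gys2, liver glycogen synthase, was at 1.93 and 2.42 (mean 2.17 ± 0.19, adjusted p = 3.3e-06), Ugp2, which makes its substrate, at 1.24 and 1.15, and Pygl, the phosphorylase that breaks glycogen down, at -0.96 and -1.19. Slc2a2, the glucose carrier, was at 0.73 and 0.84, and Slc37a4, the glucose 6-phosphate carrier, at -0.68 and -1.17, and Pfkfb3, which favours glycolysis, at -2.14 and -2.36. Of 21 tested members 10 were called higher and 7 lower (median -0.11), so the list as a whole had no single direction. With median centring these counts were 6 and 3. In females Gys2 rose by 2.29 and Pygl fell by 0.95.

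Several enzymes of amino acid breakdown rose. Mat1a, which makes S-adenosylmethionine, was at 1.36 and 1.96, Cth, cystathionine lyase, at 1.62 and 3.20, and Oat, ornithine aminotransferase, at 1.32 and 2.23, each higher on array 2. Prodh, proline dehydrogenase, fell (-1.83 and -1.71), and Arg1, the last enzyme of the urea cycle, was at -1.17 and -0.71. Of 33 tested members 13 were called higher and 8 lower, with a median of 0.18, and with median centring 4 and 2.

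Iron and BMP signalling genes included a few clear rises. Hamp2 was at 2.96 and 3.86 and Hamp, which encodes hepcidin, at 0.61 and 2.14. Id1, a target of BMP signalling, was at 1.96 and 1.00. Of 16 tested iron genes 6 were higher and 1 lower (3 and 0 with median centring, 4 and 0 without either array). Among 16 immediate-early genes 5 were higher and 1 lower: Nr4a1 was at 3.28 and 2.32 and Ier3 at 2.05 and 2.76, and Gadd45g fell, with unequal arrays (-3.34 and -0.99). Gadd45g was not called without array 1 (-1.06, adjusted p = 0.392), and the count of higher genes was then 2. Usp18, an interferon-induced protease, rose (2.78 and 2.79), although of 13 tested interferon-stimulated genes 1 was called higher and 1 lower.

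Genes of large protein complexes changed by small amounts. Of 80 tested ribosomal protein genes 65 were called higher and none lower, at a median of 0.46. Of 37 proteasome genes 1 was called higher and 24 lower at a median of -0.30, and of 77 respiratory chain genes 5 higher and 36 lower at a median of -0.19. These lists depended on the normalization. With median centring 15 ribosomal protein genes were higher (median 0.72) and no proteasome gene was called (median -0.10), and the median of the respiratory chain turned to 0.05 with 1 gene called lower. Without array 1 there were 42 ribosomal protein genes higher and 20 respiratory chain genes lower. Genes that build ribosomes were lower for 9 of 25 and higher for 4 (median -0.12), and with median centring 1 was lower and 1 higher.

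Markers of lymphocytes were higher in Hypox livers. Of 9 tested B cell markers 8 were called higher and none lower (median 0.64, 5 higher without array 1 or with median centring), of 9 T cell markers 7 (median 0.68) and of 7 natural killer cell markers 4 (median 0.79). These markers were dim: mean log2 levels of the 3 lists in sham males lay between 6.75 and 7.03. Cux2, not well above background there, was at 6.26 and 6.28. With the scanner's log ratios the medians were 1.8, 1.4 and 1.8, so their size depended on the processing. Ms4a1, which encodes CD20, was at 2.14 and 1.51 and Fcer2a, the IgE receptor of B cells, at 0.75 and 0.81. The T cell receptor subunit gene Cd3d was at 1.21 and 0.73 and the natural killer receptor gene Klrd1 at 1.80 and 1.52. The medians of the T cell list were 1.01 on array 1 and 0.34 on array 2, and 1 of its calls was left without array 1, when Cd3d was at 0.66 (adjusted p = 0.145). Of the natural killer markers 1 was left called without array 1. In bulk liver, more cells of a type and more RNA per cell cannot be told apart. Of 11 Kupffer cell and macrophage markers none was called (medians 0.61 and 0.03 on the arrays), and of 7 neutrophil markers none was called. Of 11 tested fetal and regeneration genes 8 were called higher (median 0.73), among them Afp, α-fetoprotein (0.85 and 0.82), and without array 1 this count was 2.

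**Figure D5:**
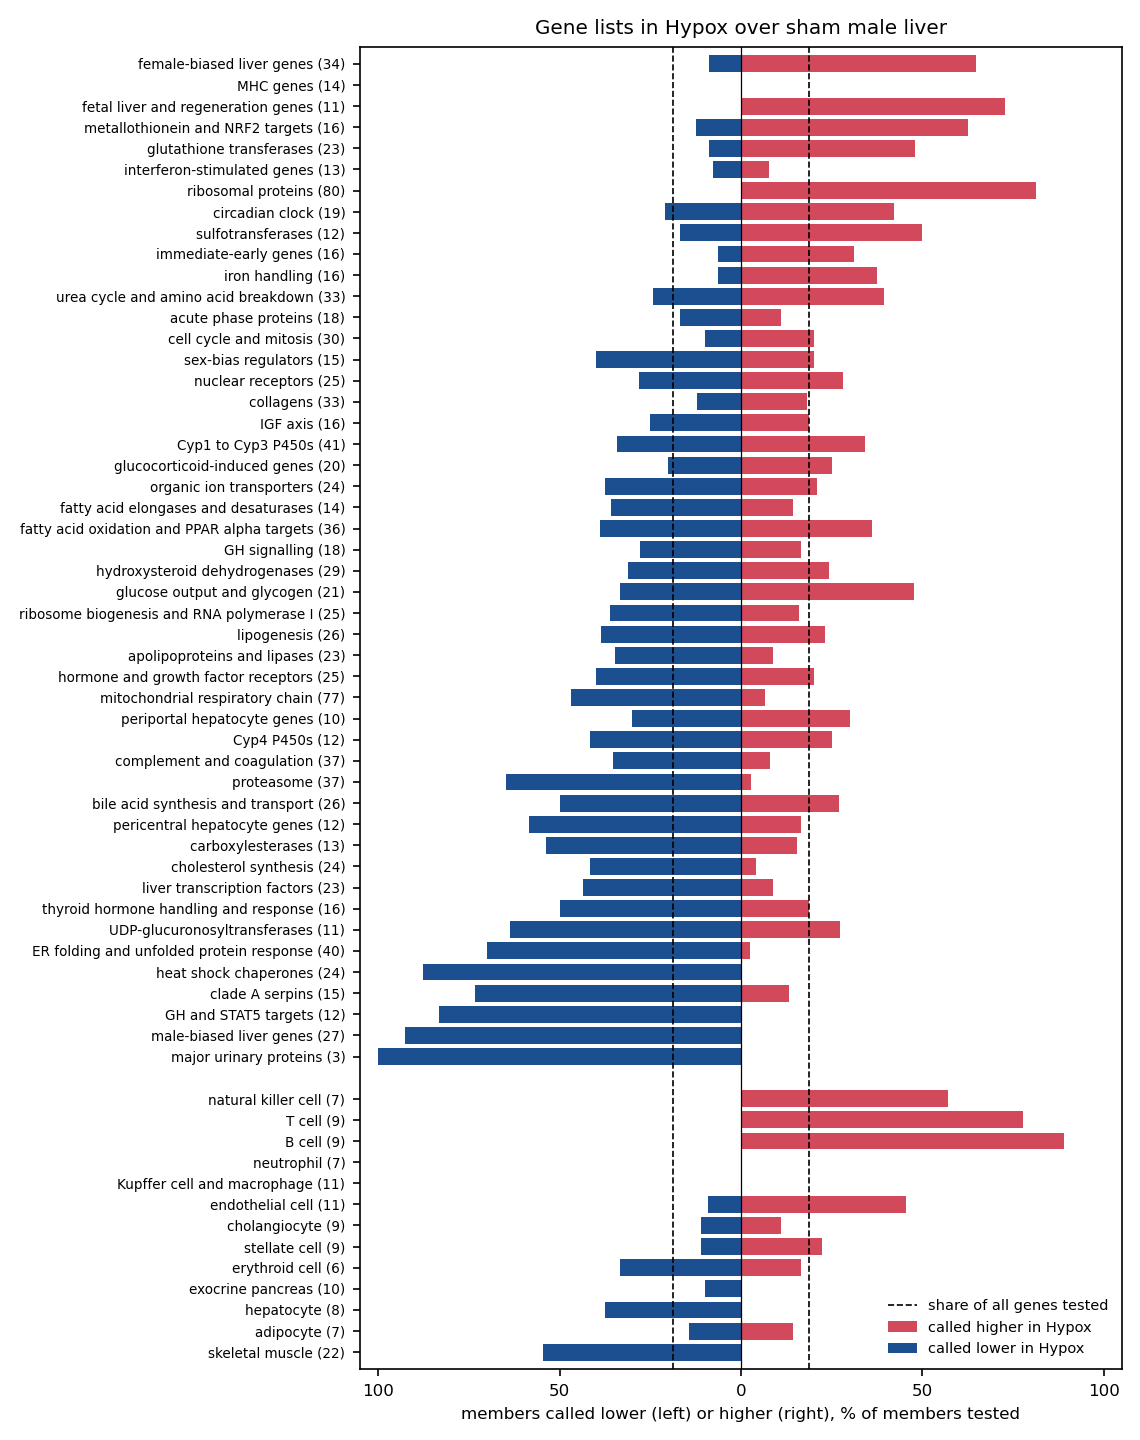
Share of the tested members of each of 61 gene lists that was called higher (right, red) or lower (left, blue) in Hypox over sham males, in % of the members tested, with pathway lists above and cell type lists below and the number tested in brackets. The dashed lines mark the shares over all genes tested, 18.8% higher and 18.6% lower. Male-biased, heat shock and ER lists extend far to the left and ribosomal protein and lymphocyte lists far to the right.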

How the data were processed

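Total RNA of frozen liver was pooled, amplified once and hybridised to two-colour Agilent arrays, per the labels' protocols. The deposited scanner files hold spot intensities that Feature Extraction (9.5.1.1 and 9.5.3.1, per the file headers) read in both channels, and log10 ratios of red over green. The deposited value table holds log2 ratios, and each of its columns equals the log10 ratio of 1 scanner file to within 0.005 after the change of base. For 16 of 22 columns, these 2 arrays included, that file carries the other replicate number, so which pool sizes belong to which array is uncertain. Array numbers here are those of the scanner files.

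Intensities were background-corrected (normexp, offset 50) and loess-normalised with limma 3.58.1 in R 4.3.3, without control spots and outliers. Probes were averaged by identifier, and the brightest probe stood for a gene. A single limma fit took all 22 arrays as 11 signed comparisons with a dye term (10 residual degrees of freedom). Benjamini-Hochberg adjustment ran over 26191 genes, and a call needed an adjusted p under 0.05 and the same sign on both arrays of the comparison. For the difference between the sexes a call needed only the adjusted p. Genes not well above background in a group have bounds ("at least"). The fit was tested on simulated data. Named genes are the 20 largest rises and falls, the 8 largest sex differences each way, 8 GH pathway genes and members of 61 lists. Some of these genes are not reported here. Members and lists were chosen with earlier results of these data known. The number of arrays limits the precision.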

Additional observations from a re-analysis of the deposited data

Results flagged for a closer look

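For 1766 genes the change after hypophysectomy differed between males and females in a test of the difference itself. Among the reported genes named as largest rises, falls or sex differences or as GH pathway genes, this held for 30. Of these, 17 had the higher ratio in males and 13 the lower. Genes named only as members of a list were not counted. Each value below is the male minus the female log2 ratio of Hypox over sham.

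Genes of female-biased metabolism led the higher side. They were the sulfotransferases Sult3a1 (8.55) and Sult2a2 (4.81), the oxidase Hao2 (6.53), the carriers Slc22a26 (5.70), Slc22a29 (4.20) and Slco1a4 (2.03), the thioesterase Acot3 (4.67), the P450 genes Cyp2b9 (3.77), Cyp2c37 (3.48), Cyp2b13 (2.91), Cyp2b10 (2.70) and Cyp4a14 (2.29), and the proton pump gene Atp6v0d2 (3.68). The female-biased factor Cux2 (2.34), the lipoprotein receptor Vldlr (1.74), the steroid carrier Serpina6 (1.70) and Igfals (0.59) were higher too.

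The lower side held the hydroxylase Cyp4a12a (-5.62), Nat8f5 (-3.77), the trefoil peptide Tff3 (-3.64), the scavenger receptor Scara5 (-3.19), the glutathione transferase Gstp1 (-3.06), the chaperone Hspa1a (-2.98), the receptor Adgrv1 (-2.71), lipoprotein lipase Lpl (-2.64), the elongase Elovl3 (-2.47), the repressor Bcl6 (-2.28), Olfr166 (-1.99), whose other probe was at 0.02 in males, Csad (-1.54) and Hsd3b4 (-1.10). The difference of Igfals and that of Scara5 were called under none of the fits that left out 1 of the 4 arrays. Of these 30 differences, median centring ended the call of 6, the scanner's log ratios and the deposited table that of 5 each, and leaving out male array 1, male array 2, female array 1 or female array 2 that of 5, 2, 3 and 4. The other probes of Cyp2c37 and Sult2a2 gave smaller male ratios (1.06 and 0.62).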

How the results depend on the processing

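The count of 9783 called genes was 2991 with median centring and 5702 from the 2 arrays alone, and lay between 5049 and 6504 when 1 array was left out. The count of 1766 sex differences was 147 with median centring, 5806 in a loop model that gives each group a level of its own, and 217 from the 4 arrays alone, and lay between 575 and 854 when 1 of these was left out. The other alternatives kept both counts within 1.5 times: the scanner's log ratios, the deposited table, other filters on dim probes, the mean over probes, no dye term, and slide or scan day as a random block. Replicate numbers were not taken as pairs, since the correlations of same-numbered arrays' deviations with this comparison ran from -0.482 to 0.386. The value of -0.482 belongs to sham males over sham females, where the shared sham males stand on the other side of the ratio, so a shared sham pool and a shared dye order cannot be told apart there. With the replicate as a block the counts were 9795 and 1908, but 8 genes of the MHC list (0 in the main analysis) and 3 neutrophil markers (0) were called higher and 7 muscle markers (12) lower. Of 208 named genes, none that was called in the main analysis turned its direction under any alternative. Turns of genes not called there, such as Ghr and Sult3a1, whose arrays differed in sign, were not counted. A call needed the same sign on both arrays, so fits that re-used these ratios could hardly turn a called gene. Median centring ended the call of 19, among them Hnf4a, Hsf1, Hspa8, Hsp90ab1, Hsp90b1, Hspd1, Hspe1, Cyp2d9, Cyp2c70, Arg1 and Serpina1d, and leaving out array 1 or array 2 ended that of 17 and 8. The cause of these changes was not tested. Genes not well above background in a group have only bounds.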
